A study of Mus musculus with 60 samples.

Results

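The 10 genes described here encode proteins that fold, modify or dispose of proteins in the endoplasmic reticulum (ER): the chaperones Hspa5, Hsp90b1 and Calr, the disulfide isomerases Pdia4 and Pdia6, the co-chaperones and cofactors Dnajb9, Sdf2l1, Manf and Creld2, and the degradation factor Herpud1. They were chosen by name and matched to Ensembl identifiers, and all 10 were found among the 52636 genes of the count table and passed the filter on low counts in all 6 tissues. RNA came from kidney, liver, lung, skeletal muscle, skin and spleen of old mice, in 60 libraries. The study asked whether repeated expression of reprogramming factors alters the transcripts of old tissues, with doxycycline-treated mice lacking the factors as a control for the drug.

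The treated 4F mice carried 1 copy of a doxycycline-inducible cassette of Pou5f1 (Oct4), Sox2, Klf4 and Myc and 1 copy of the R26::rtTA transactivator on a C57BL/6 background, and drank 1 mg/ml doxycycline on 2 days a week, with 5 days off, for 10 months up to 22 months of age. The untreated 4F mice carried the same alleles and were 22 months old. The treated B6 mice were C57BL/6 mice without the cassette, given the same weekly schedule for 5 months up to 25 months of age per the series text, and the untreated B6 mice were 26 months old in that text and 25 months old in the labels. Each 4F arm held 3 libraries per tissue (1 male and 2 females), and each B6 arm held 2 libraries, all male. The labels do not say that the libraries of an arm came from separate mice, so p-values measure the spread between these samples. A protocol label gives 10 months for all treated mice, and the treatment label of the treated B6 mice names induction of a cassette they lack. No cell type is named for the cassette's induction, and the time from the last drug day to sampling is not given in the sources used here.

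The ER folds and glycosylates proteins bound for membranes and secretion. When unfolded proteins accumulate there, the sensors IRE1 (Ern1), PERK (Eif2ak3) and ATF6 start the unfolded protein response: cleaved ATF6 and spliced XBP1 raise chaperone transcription through the ER stress response element (ERSE), while PERK slows translation and favours ATF4. Proteins that stay misfolded are drawn back to the cytosol and degraded by the proteasome. The response is well known from secretory cells, among them hepatocytes and the plasma cells of the spleen.

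The promoters of the members are shown because they carry the element that joins many of them in one response. Windows from 250 bases before to 50 bases after the annotated RefSeq start (GRCm38.p6) were given for 9 members; none was given for Manf. ERSE was searched on both strands as a CCAAT box followed, after 9 bases of any kind, by a CCACG element. It was found in 5 of 9 member windows, those of Hspa5, Hsp90b1, Calr, Creld2 and Pdia6, and in 39 of 32851 promoter windows (0.1187%). The sites follow, each read on the strand that carries the motif, with the CCAAT box and the CCACG element in capitals.
Hspa5, chr2:34772025-34772043: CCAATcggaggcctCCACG
Hsp90b1, distal, chr10:86705638-86705656: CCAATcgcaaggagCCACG
Hsp90b1, proximal, chr10:86705533-86705551: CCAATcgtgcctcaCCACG
Calr, chr8:84847075-84847093: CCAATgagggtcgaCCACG
Creld2, chr15:88819520-88819538: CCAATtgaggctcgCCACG
Pdia6, chr12:17266491-17266509: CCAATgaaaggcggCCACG
Herpud1, ERSE-II, chr8:94386377-94386387: ATTGGgCCACG

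Hsp90b1 was the member with 2 ERSE sites, on opposite strands at 212 to 194 and 107 to 89 bases before the start. The Hspa5 site lay at 65 to 47 bases and the Calr site at 162 to 144 bases before the start. Herpud1 held no ERSE but the related ERSE-II, ATTGG followed after 1 base of any kind by CCACG, at 52 to 42 bases before the start, which 12 of the 32851 windows (0.0365%) held. Dnajb9, Pdia4 and Sdf2l1 held neither in their windows, although all 9 windows held a CCAAT box and a CCACG element somewhere, against 37.4% and 32.8% of all windows. Both shorter motifs lie inside ERSE and ERSE-II. TGACGTG, the core of the XBP1-bound UPRE, was found in Hspa5 alone among the members and in 2.01% of all windows, and the ATF4 composite TGATGNAAT was in 0 of 9 member windows and 0.965% of all. A match is a description of these letters, and no binding was measured.

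The whole windows of Hspa5, Herpud1 and Dnajb9 are given on their gene strands, GRCm38.p6, because these 3 members differ in their elements. A relation between these elements and the transcripts described below was not tested. Capitals mark the full ERSE or ERSE-II, and the Dnajb9 window has none.
Hspa5, chr2:34771840-34772139, plus strand: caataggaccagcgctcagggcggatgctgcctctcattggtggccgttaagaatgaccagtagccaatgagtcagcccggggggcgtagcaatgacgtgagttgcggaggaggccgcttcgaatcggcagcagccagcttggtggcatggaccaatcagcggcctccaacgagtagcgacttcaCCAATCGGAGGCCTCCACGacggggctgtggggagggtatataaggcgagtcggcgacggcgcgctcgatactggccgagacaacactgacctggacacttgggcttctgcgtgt
Herpud1, chr8:94386179-94386478, plus strand: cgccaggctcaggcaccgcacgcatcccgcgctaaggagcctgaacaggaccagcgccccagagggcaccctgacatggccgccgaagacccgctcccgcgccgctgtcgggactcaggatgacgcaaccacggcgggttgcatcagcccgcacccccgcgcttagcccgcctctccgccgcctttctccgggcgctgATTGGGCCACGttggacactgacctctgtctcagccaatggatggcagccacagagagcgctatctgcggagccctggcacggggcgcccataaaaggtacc
Dnajb9, chr12:44210019-44210318, minus strand: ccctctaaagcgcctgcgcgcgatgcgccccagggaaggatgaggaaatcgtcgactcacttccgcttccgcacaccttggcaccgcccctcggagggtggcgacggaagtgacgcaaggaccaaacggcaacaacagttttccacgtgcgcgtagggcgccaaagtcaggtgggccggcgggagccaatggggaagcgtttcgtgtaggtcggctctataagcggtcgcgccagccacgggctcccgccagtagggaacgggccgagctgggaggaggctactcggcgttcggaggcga

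**Figure D1:**
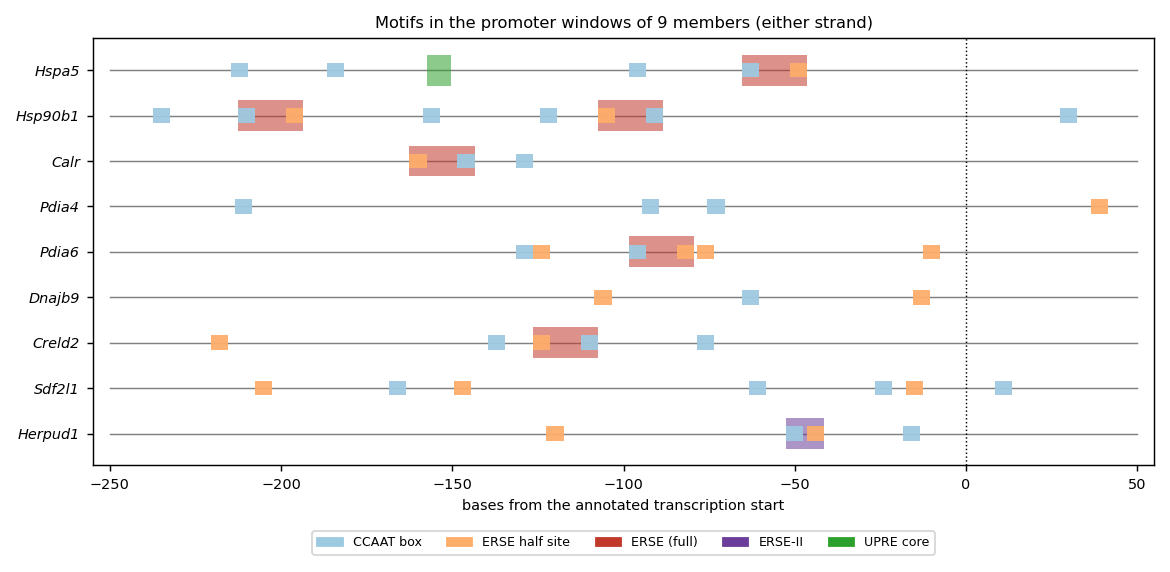
Motifs on either strand in the promoter windows of 9 members; the horizontal axis is the distance in bases from the annotated start (dotted line). Tall red blocks are full ERSE sites, in 5 of 9 members, the tall purple block is the ERSE-II of Herpud1, the tall green block is the UPRE core of Hspa5, and short blue and orange blocks are CCAAT boxes and CCACG elements.

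Libraries held 18517963 to 43176392 counts, and the members 71 to 33339 counts in a library. Pou5f1, a pluripotency gene of the cassette, reached at most 0.206 CPM (read counts scaled to a common library size) in treated 4F and 0.145 CPM in untreated 4F libraries, with 12 of 18 and 13 of 18 libraries at 0, and cassette reads cannot be told from the mouse's own genes in gene counts. Markers of each labelled tissue summed higher in all its libraries than in any other library, narrowly for the B cell markers of spleen and for muscle, whose fibre markers summed to 110927 to 156449 CPM in muscle and 51748 to 110694 CPM in skin. Keratinocyte markers varied between 539.6 and 23538 CPM in skin. In 7 libraries the summed level of a cell type's markers was over 2 times that of any other library of the tissue; they were chosen after the data were seen. They are treated 4F lung replicate 2 (macrophage), and untreated 4F kidney replicate 2 (plasma cell), lung replicate 2 (muscle fibre), muscle replicate 3 (macrophage), skin replicate 1 (kidney tubule and plasma cell) and spleen replicate 2 (pancreas acinar), and untreated B6 liver replicate 2 (macrophage, plasma cell, fibroblast matrix and neutrophil). Results that rest on them are given with and without them, and beyond that the part of these cell types in the members' levels was not tested.

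The liver held the highest mean level of 8 of the 10 members, and the spleen that of the other 2. Levels between genes and tissues are CPM per kb of exon. Calr, a lectin chaperone of glycoproteins, averaged 389 ± 87.5 CPM per kb in liver, 187 ± 29.6 in kidney, 171 ± 19.02 in spleen, 132 ± 38.3 in lung, 85.04 ± 18.1 in skin and 84.8 ± 24.4 in muscle (SD, n = 10 libraries per tissue, here and for each level that follows). Kidney and spleen did not differ for Calr beyond the spread (edgeR adjusted p 0.501), nor did skin and muscle (adjusted p 1). Hspa5 (BiP), the ER's main Hsp70-type chaperone, averaged 225 ± 46.95 CPM per kb in liver, 148 ± 18.7 in spleen, 107 ± 37.00 in lung, 105 ± 20.2 in kidney, 84.6 ± 16.6 in muscle and 68.6 ± 18.5 in skin. Liver and spleen differed for Hspa5 (edgeR adjusted p 0.000397), and no neighbours among its last 4 tissues in this order differed beyond the spread (adjusted p 0.0561 to 1).

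The secretory tissues stood apart most for Pdia4, a disulfide isomerase, whose mean level was 13.3 times as high in liver as in muscle. Pdia4 averaged 124 ± 27.4 CPM per kb in liver and 96.4 ± 29.7 in spleen, which did not differ beyond the spread (edgeR adjusted p 0.0877), then 43.6 ± 13.998 in lung, 38.00 ± 4.39 in kidney, 15.9 ± 3.84 in skin and 9.32 ± 3.84 in muscle. Lung and kidney did not differ for Pdia4 beyond the spread (adjusted p 0.391). Pdia6, another isomerase, averaged 114 ± 30.9 CPM per kb in liver, 49.8 ± 6.71 in spleen, 49.2 ± 14.02 in lung, 40.3 ± 5.68 in kidney, 24.8 ± 4.22 in skin and 21.2 ± 5.79 in muscle. Below liver, kidney and skin were the only neighbours in this order that differed for Pdia6 beyond the spread (adjusted p 0.000173, against 0.14 to 0.876 for the others). Hsp90b1 (GRP94), the ER form of the Hsp90 chaperones, averaged 237 ± 37.8 CPM per kb in liver, with 166 ± 27.99 in spleen, 118 ± 31.4 in lung, 88.97 ± 14.8 in kidney, 51.2 ± 19.5 in muscle and 50.6 ± 10.1 in skin. Muscle and skin did not differ for Hsp90b1 beyond the spread (adjusted p 1).

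Creld2, an EGF-repeat protein of the ER, averaged 66.5 ± 18.5 CPM per kb in spleen and 45.02 ± 15.4 in liver (edgeR adjusted p 0.00119), with 39.9 ± 14.2 in lung, 24.98 ± 7.41 in kidney, 11.4 ± 2.57 in skin and 9.37 ± 1.24 in muscle. Liver and lung did not differ for Creld2 beyond the spread (adjusted p 0.236), nor did skin and muscle (adjusted p 0.261). Sdf2l1, a partner of Hspa5 complexes, averaged 58.4 ± 8.54 CPM per kb in spleen and 53.6 ± 21.4 in liver, which did not differ beyond the spread (adjusted p 0.679). It averaged 27.1 ± 16.6 in lung, 11.001 ± 3.33 in kidney, 7.91 ± 6.70 in muscle and 7.13 ± 1.74 in skin, and no neighbours among the last 3 differed beyond the spread (adjusted p 0.0851 and 0.935). Manf, a cofactor of Hspa5 that cells can also secrete, averaged 43.5 ± 11.9 CPM per kb in liver, 31.7 ± 5.94 in spleen, 21.8 ± 8.16 in lung, 13.9 ± 3.01 in kidney, 10.8 ± 2.00 in skin and 8.68 ± 1.85 in muscle, and no neighbours among the last 3 differed beyond the spread (adjusted p 0.0565 and 0.121). Its locus overlaps Rbm15b on the same strand and Dcaf1 on the other, so its counts are less certain.

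Herpud1 and Dnajb9 had another order. Herpud1, which organises the HRD1 ubiquitin ligase of ER degradation, averaged 373 ± 125 CPM per kb in liver, 205 ± 57.1 in kidney, 116 ± 27.2 in muscle, 105 ± 29.4 in spleen, 98.8 ± 18.8 in lung and 74.3 ± 15.2 in skin, and no neighbours among muscle, spleen, lung and skin differed beyond the spread (adjusted p 0.0801 to 0.659). Dnajb9 (ERdj4), a J-domain co-chaperone of Hspa5 that restrains IRE1, had the narrowest range, 2.41-fold. Its mean was 26.3 ± 12.05 CPM per kb in liver, 23.00 ± 7.21 in muscle, then 15.5 ± 3.03 in kidney, 13.998 ± 4.89 in lung, 12.1 ± 2.74 in skin and 10.9 ± 2.54 in spleen, and no neighbours among the last 4 differed beyond the spread (adjusted p 0.19 to 0.715). Liver and muscle did not differ for Dnajb9 beyond the spread (adjusted p 0.379), and muscle was above spleen by 1.15 on the log2 scale, where 8 other members were lower in muscle than in spleen.

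**Figure D2:**
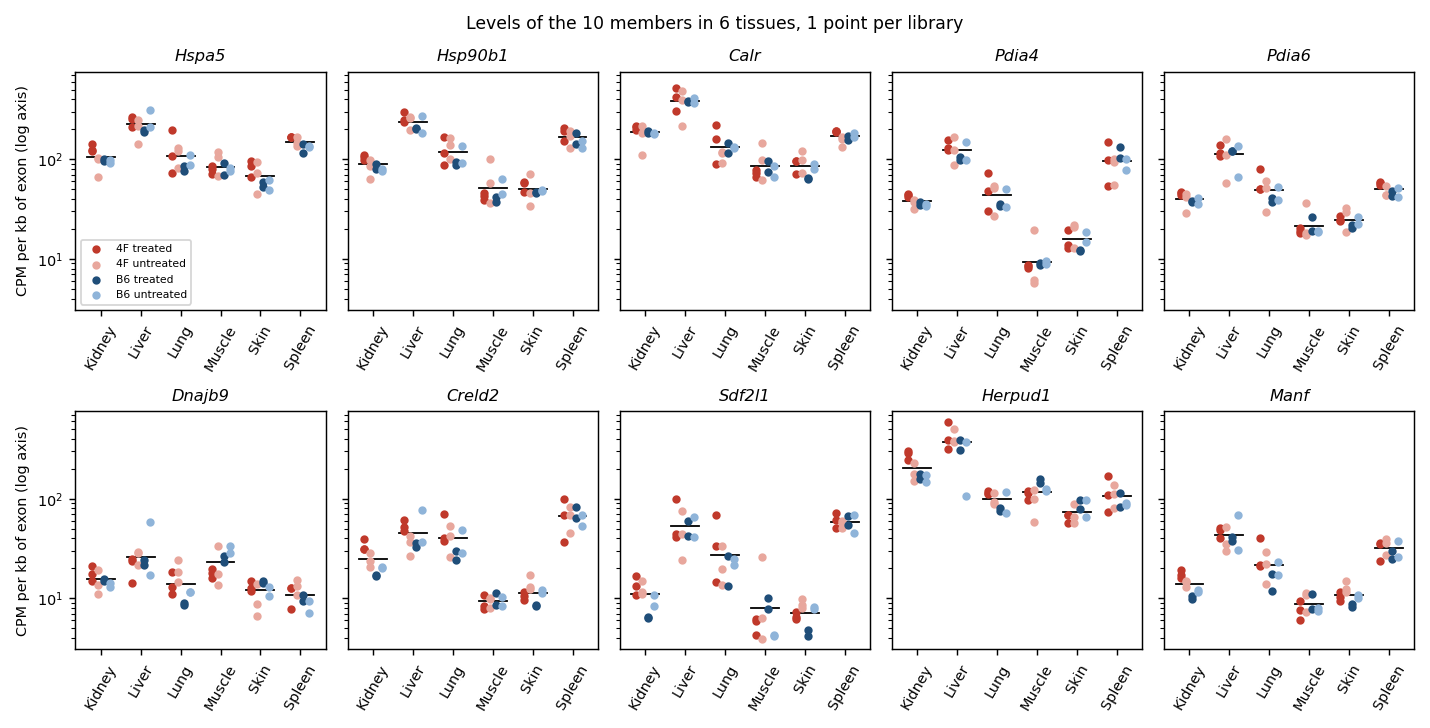
Level of each member (CPM per kb of exon, log axis) in 6 tissues, 1 point per library, coloured by arm, with a line at the mean of 10 libraries. Liver is highest for 8 members and spleen for Creld2 and Sdf2l1, and Dnajb9 differs least between tissues.

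Between tissues most genes differ, so the members' counts are read against that background. The labels do not tie libraries to mice, and the fit treats the 60 libraries as independent, so if tissues came from the same mice its p-values do not account for that. Kidney and liver differed for 10 of 10 members, all lower in kidney, where 60.5% of all genes passed (edgeR, 60 libraries, adjusted p under 0.05). Liver and skin also differed for 10 of 10 members, against 65.2% of genes, and liver was higher in all. Muscle and skin differed for 3 of 10 members, against 49.6% of genes: Dnajb9 and Herpud1 were higher in muscle and Pdia4 was lower. The skin libraries hold the muscle fibre transcripts given above, and their part in this pair was not tested. With untreated libraries alone the same comparison passed for 2 of 10, against 35.4% of genes. Kidney against muscle then passed for 5 of 10, against 49.96% of genes, in place of 8 of 10 against 65.3% with all libraries.

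Doxycycline treatment of 4F mice was followed by no member passing the threshold in any tissue. Of 60 tests of a member in a tissue, 0 passed and 5 had an unadjusted p under 0.05 with edgeR, and 0 passed and 7 had an unadjusted p under 0.05 with DESeq2. Few genes passed at all with edgeR: 0% in kidney, liver, lung, skin and spleen and 0.00609% in muscle. With DESeq2 the share was 0.094% in kidney, 0.0491% in liver, 0.0985% in lung, 0.524% in muscle, 3.26% in skin and 0.156% in spleen. Without the libraries that stand apart, 0 of 60 passed and 7 had an unadjusted p under 0.05 with edgeR, where 0% of genes passed in kidney, lung and spleen, 0.00593% in liver, 0.0062% in muscle and 3.79% in skin. In B6 mice 0 of 60 tests passed with edgeR, and 0 of the 54 to which DESeq2 gave an adjusted p; it gave none to 6 members in B6 skin. In B6 mice 2 tests had an unadjusted p under 0.05 with either tool, and 0% of genes passed in each tissue with edgeR and 0% to 0.856% with DESeq2. For the difference between the effects in 4F and B6 mice, 0 of 60 passed with either tool and 5 had an unadjusted p under 0.05 with each, with 0% of genes passing in each tissue with edgeR. The 4F and B6 mice also differ in age, sex and length of treatment, which cannot be told apart from the genotype in this difference. With DESeq2 the shares for the difference were 0.0995% in kidney, 0.0675% in liver, 0% in lung, 0.304% in muscle, 0.35% in skin and 0.28% in spleen.

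With all libraries, the 4F arms separated with treated higher for 5 members in kidney (against 2.98% of genes), 2 in spleen (3.91%) and 1 in liver (5.46%). In skin 3 separated and were lower (against 5.9%), and in lung and muscle 0 separated, with the shares given below. Without the libraries that stand apart, 5 were higher in kidney (against 6.47% of genes), 2 in spleen (8.79%) and 1 in muscle (Pdia4, 9.65%). In lung 7 were lower (against 15.9%), and in skin 2 were higher (23.5%) and 3 lower (24.3%). In kidney the fitted log2 fold change (treated over untreated 4F) was positive for all 10 members, between 0.09 and 0.57. Its median was 0.28, where the median over all 18092 genes tested in kidney was -0.01. Herpud1 held 780.4, 641 and 751 CPM in the treated 4F kidneys and 473, 393 and 612 CPM in the untreated 4F kidneys. All treated libraries lay above all untreated ones (log2 fold change 0.57 ± 0.15 (SE), edgeR p 0.00498, adjusted p 0.923; DESeq2 adjusted p 0.0851). In B6 kidneys Herpud1 held 415 and 459 CPM in the treated libraries and 398 and 469.7 CPM in the untreated libraries, which overlapped (0.01 ± 0.19).

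In kidney Creld2 held 48.3, 48.3 and 59.5 CPM in the treated 4F libraries and 31.6, 36.1 and 44.3 CPM in the untreated 4F libraries. The treated B6 kidneys held 25.8 and 26.1 CPM of it, and the untreated B6 kidneys 31.9 and 33.2 CPM. The treated 4F libraries were the highest of the 10 kidneys, and the treated B6 libraries the lowest. Its log2 fold change was 0.49 ± 0.14 in 4F mice (edgeR p 0.00704) and -0.33 ± 0.17 in B6 mice (p 0.0902), and the difference was 0.82 ± 0.22 (p 0.00538, adjusted p 1). Manf held 67.3, 62.5 and 75.5 CPM in the treated 4F libraries, 58.96, 51.6 and 58.97 CPM in the untreated 4F libraries, 39.2 and 41.8 CPM in the treated B6 libraries and 48.7 and 47.2 CPM in the untreated B6 libraries. Its arms did not overlap in either genotype, with treated 4F libraries above untreated ones and treated B6 libraries below untreated ones, and the difference of effects was 0.52 ± 0.17 (p 0.0137, adjusted p 1).

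In kidney Hspa5 held 574, 584 and 662 CPM in the treated 4F libraries and 497, 317 and 489 CPM in the untreated 4F libraries. Its log2 fold change was 0.49 ± 0.18 (edgeR p 0.0284). The B6 libraries lay together between 457 and 480.3 CPM in both arms. Pdia4 held 121, 113 and 116 CPM in the treated 4F libraries and 106, 85.8 and 102 CPM in the untreated 4F libraries (0.26 ± 0.10, p 0.0388). Arms of 4F kidneys thus did not overlap for 5 of 10 members, all higher in treated libraries, where 2.98% of all genes did so.

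The other 5 members overlapped in 4F kidneys. Their log2 fold changes were 0.33 ± 0.17 for Hsp90b1, 0.29 ± 0.20 for Calr, 0.26 ± 0.19 for Dnajb9, 0.24 ± 0.16 for Pdia6 and 0.09 ± 0.16 for Sdf2l1. Untreated 4F kidney replicate 2 was the lowest of the 10 kidney libraries for 7 members, and its plasma cell markers summed to 7837 CPM, against at most 3469 CPM in the others. Without untreated 4F replicate 1 the median was 0.42. Without replicate 2 all 10 members were still positive, with a median of 0.18, and the same 5 did not overlap, against 6.47% of genes. Herpud1 was then 0.47 ± 0.15 (edgeR p 0.0142) and Creld2 0.49 ± 0.16 (p 0.0161), Hspa5 0.29 ± 0.13 (p 0.0534) and Calr 0.06 ± 0.13.

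In B6 kidneys 5 of 10 members were positive and the median was 0.00. Sdf2l1 held 8.09 and 7.86 CPM in the treated B6 libraries and 10.6 and 13.9 CPM in the untreated B6 libraries, the treated libraries below the untreated ones (-0.62 ± 0.20, edgeR p 0.0149, adjusted p 0.988). With it, Creld2 and Manf made 3 of 10 members that did not overlap and were lower in treated libraries, against 19.6% of genes, and Dnajb9 was the 1 of 10 that did not overlap and was higher, against 17.4%. The differences of effects (4F minus B6) in kidney were positive for all 10 members with a median of 0.40. Sdf2l1 had 0.71 ± 0.26 (p 0.0246) and Herpud1 0.56 ± 0.24 (p 0.0456), each at an adjusted p of 1. Without untreated 4F replicate 2 that median was 0.23.

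**Figure D3:**
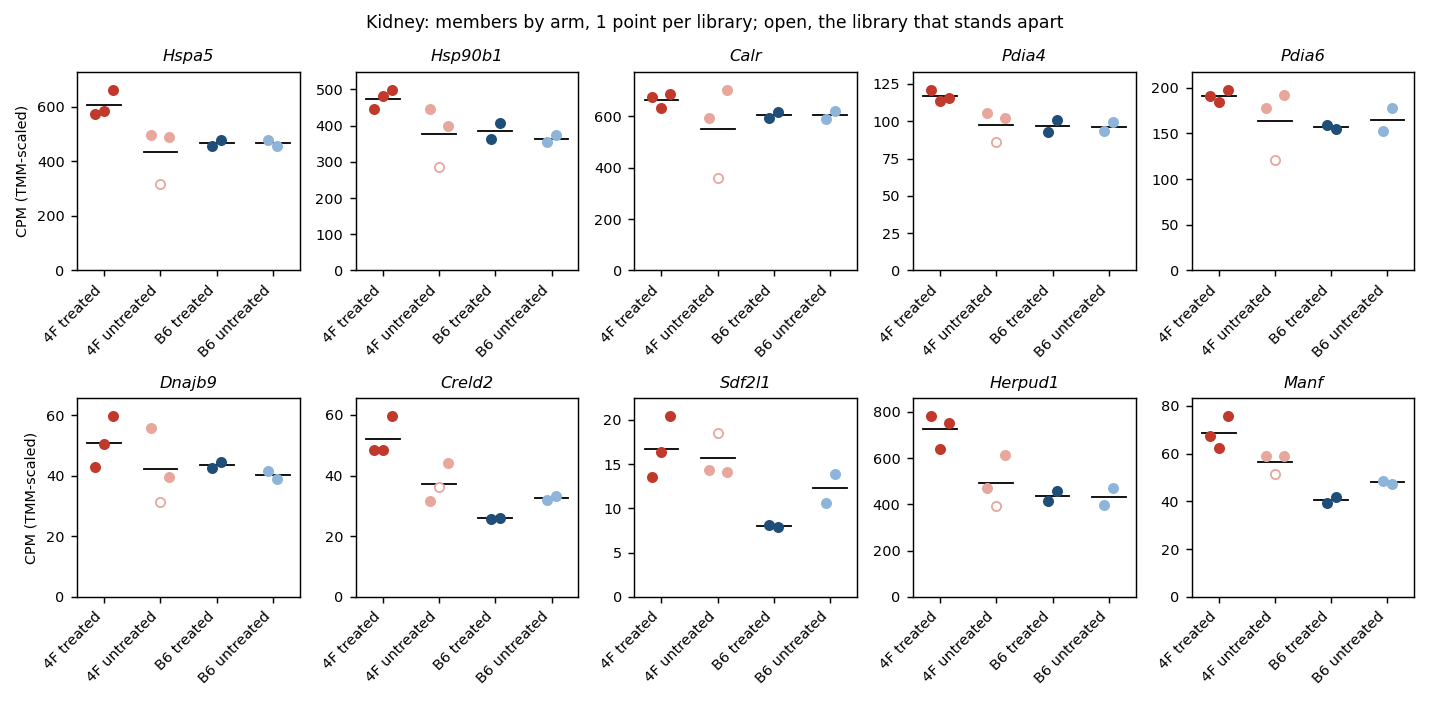
Level of each member in kidney (CPM scaled by TMM, axis from 0), 1 point per library by arm, with a line at the arm's mean (3 libraries in each 4F arm, 2 in each B6 arm). The open point is untreated 4F replicate 2; the treated 4F points lie above all untreated 4F points for Hspa5, Pdia4, Creld2, Herpud1 and Manf.

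In liver the 4F arms overlapped for 9 members and separated for Creld2. Creld2 held 43.5, 49.3 and 58.00 CPM in the treated 4F libraries, 38.97, 25.2 and 34.01 CPM in the untreated 4F libraries, 31.2 and 32.5 CPM in the treated B6 libraries and 73.6 and 37.7 CPM in the untreated B6 libraries. Treated 4F livers lay above untreated ones (0.61 ± 0.29, edgeR p 0.0696) and treated B6 livers below untreated ones (-0.81 ± 0.36, p 0.0552). The difference was 1.42 ± 0.46 (p 0.0159, adjusted p 0.494). Creld2 was the 1 of 10 members that did not overlap and was higher in treated 4F livers, where 5.46% of genes did so. The median over the members was 0.17 with 9 of 10 positive, and untreated 4F replicate 2 was the lowest of the 10 livers for 7 members. Without that library the median was -0.05, without treated 4F replicate 3 it was 0.01, without treated 4F replicate 1 it was 0.26, and without untreated 4F replicate 1 it was 0.47. Treated 4F replicate 1 is the male of its arm, so the fit without it compares 4F females only.

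The B6 livers turned on the untreated pair, which differed from each other. Dnajb9 held 37.7 and 40.9 CPM in the treated B6 libraries and 102 and 32.96 CPM in the untreated B6 libraries, and Herpud1 496 and 601 CPM in the treated B6 libraries and 605 and 188 CPM in the untreated B6 libraries. Untreated B6 replicate 2, which held 22665 CPM of macrophage markers against at most 3341 CPM in the other livers, had the lowest Herpud1 of the 10 livers. Hspa5, Calr, Pdia4 and Creld2 did not overlap and were lower in treated B6 livers, 4 of 10 members against 16.1% of genes. With replicate 1 as the lone untreated B6 library, assumed to vary like the other arms, all 10 members were lower in both treated B6 livers, against 35.7% of genes, with a median of -0.51 in place of -0.29. Dnajb9 was then -1.37 ± 0.29 (edgeR p 0.00152) and Creld2 -1.21 ± 0.28 (p 0.00232), each at an adjusted p of 0.986. With replicate 2 as the lone untreated library the median was 0.21 and Herpud1 passed the threshold at 1.67 (adjusted p 0.00537), as did 6113 of 17641 genes, so the direction of these members in B6 livers rests on which untreated library is kept.

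In lung 8 of 10 members had a positive log2 fold change in 4F mice and 0 of 10 in B6 mice with all libraries, and the 4F values changed with single libraries. Hspa5 held 417, 1199.7 and 655 CPM in the treated 4F libraries, 694, 483 and 764 CPM in the untreated 4F libraries, 524 and 447 CPM in the treated B6 libraries and 652 and 531 CPM in the untreated B6 libraries. Treated 4F replicate 2 was the highest of the 10 lungs for 9 members, the exception being Dnajb9, and it held 23620.3 CPM of macrophage markers, against at most 11492 CPM in the others. Sdf2l1 held 22.2, 111 and 53.3 CPM in the treated 4F libraries and 51.3, 21.00 and 30.7 CPM in the untreated 4F libraries, and the arms overlapped (0.64 ± 0.52, edgeR p 0.251). Without that library and untreated 4F replicate 2, the median over the members was -0.28 in place of 0.27, and 2 of 10 were positive. Hspa5, Hsp90b1, Pdia4, Pdia6, Dnajb9, Creld2 and Manf then did not overlap and were lower in treated 4F lungs, 7 of 10 members against 15.9% of genes, and 0 of 10 were higher, against 16.02%. Leaving out 1 library at a time, the median was -0.03 without treated 4F replicate 2 and -0.02 without untreated 4F replicate 2. It was 0.58 without treated 4F replicate 1 or without untreated 4F replicate 3. Each of these is the male of its arm, and with the sex term either fit compares 4F females only.

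Dnajb9 was lower in treated lungs of both genotypes. It held 38.5, 66.9 and 47.1 CPM in the treated 4F libraries, 83.9, 64.9 and 52.5 CPM in the untreated 4F libraries, 31.1 and 32.01 CPM in the treated B6 libraries and 41.05 and 42.6 CPM in the untreated B6 libraries. The 4F arms overlapped (-0.41 ± 0.18, edgeR p 0.0503), and the B6 arms did not (-0.41 ± 0.22, p 0.0974). Hspa5, Hsp90b1 and Dnajb9 were the 3 of 10 members that did not overlap and were lower in treated B6 lungs, against 9.8% of genes. No member's 4F arms separated in lung with all libraries (0 of 10, against 6.93% higher and 6.14% lower). Without the libraries named above, Dnajb9 in 4F lungs was -0.65 ± 0.20 (p 0.0147, adjusted p 0.968).

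In muscle 9 of 10 members were negative in 4F mice, with a median of -0.32. It was 0.02 without untreated 4F replicate 3, -0.01 without treated 4F replicate 1 and -0.49 without untreated 4F replicate 1. Untreated replicate 3 and treated replicate 1 are the males of the 4F arms, and without either the fit compares 4F females only. Pdia4 held 13.01, 13.4 and 12.6 CPM in the treated 4F libraries and 9.93, 8.92 and 33.6 CPM in the untreated 4F libraries, and Sdf2l1 3.01, 4.47 and 4.23 CPM in the treated 4F libraries and 2.91, 4.48 and 20.7 CPM in the untreated 4F libraries. Untreated 4F replicate 3 was the highest of the 10 muscles for 8 members and the lowest for Dnajb9 and Herpud1. It held 11857 CPM of macrophage markers, against at most 239 CPM in the others. Herpud1 held 145, 172 and 179.6 CPM in the treated 4F libraries and 153, 183 and 97.9 CPM in the untreated 4F libraries (0.23 ± 0.16). Without untreated 4F replicate 3, 5 of 10 members were positive, among them Pdia4 at 0.49 ± 0.16 (edgeR p 0.016, adjusted p 0.602).

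In B6 muscle 7 of 10 members were positive with a median of 0.08, which was -0.08 without treated B6 replicate 2, -0.05 without untreated B6 replicate 1, 0.25 without treated B6 replicate 1 and 0.21 without untreated B6 replicate 2. Sdf2l1 held 5.64 and 7.05 CPM in the treated B6 libraries and 3.11 and 3.04 CPM in the untreated B6 libraries (1.05 ± 0.67, edgeR p 0.159), at 71 or more counts in a library. Sdf2l1 and Herpud1 did not overlap and were higher in treated B6 muscle, 2 of 10 members against 22.7% of genes, and Hsp90b1, Pdia4 and Dnajb9 were lower, 3 of 10 against 22.3%. No member's 4F arms separated in muscle with all libraries (0 of 10, against 3.93% higher and 4.01% lower).

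In skin Creld2, Sdf2l1 and Manf were lower in the treated libraries of both genotypes, without overlap. Creld2 held 13.3, 15.97 and 14.8 CPM in the treated 4F libraries, 17.2, 17.7 and 23.9 CPM in the untreated 4F libraries, 11.8 and 11.6 CPM in the treated B6 libraries and 15.5 and 16.7 CPM in the untreated B6 libraries. Sdf2l1 held 7.24, 7.07 and 8.23 CPM in the treated 4F libraries, 8.99, 9.55 and 11.1 CPM in the untreated 4F libraries, 5.35 and 4.72 CPM in the treated B6 libraries and 9.08 and 8.83 CPM in the untreated B6 libraries. The log2 fold changes were -0.40 ± 0.20 in 4F and -0.46 ± 0.25 in B6 mice for Creld2, -0.39 ± 0.22 and -0.83 ± 0.27 for Sdf2l1, and -0.31 ± 0.16 and -0.30 ± 0.19 for Manf. The lowest unadjusted edgeR p among them was 0.017, for Sdf2l1 in B6 skin (adjusted p 0.63), where DESeq2 gave a p of 0.00106 and no adjusted p. These were 3 of 10 members in 4F skin, against 5.9% of genes, and in B6 skin 7 of 10 members did not overlap and were lower, against 26.4% of genes.

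Hspa5 and Hsp90b1 did not share that direction in 4F skin, each by less than its SE, and 3 of 10 members were positive. Calr was -0.15 ± 0.25 with all libraries and 0.11 ± 0.21 without untreated 4F replicate 1. Hspa5 held 371, 414 and 288 CPM in the treated 4F libraries and 409, 189 and 315 CPM in the untreated 4F libraries (0.23 ± 0.32), and Hsp90b1 245, 239 and 194 CPM in the treated 4F libraries and 293, 136 and 188 CPM in the untreated 4F libraries (0.14 ± 0.29). Untreated 4F replicate 1, which held 4888 CPM of kidney tubule markers and 4647 CPM of plasma cell markers, was the highest of its arm for Hspa5, Hsp90b1 and Calr. Without it, Hspa5 was 0.61 ± 0.28, Hsp90b1 0.55 ± 0.19 and Dnajb9 0.77 ± 0.19 (edgeR adjusted p 0.0603), while Creld2, Sdf2l1 and Manf were -0.48 ± 0.21, -0.45 ± 0.22 and -0.36 ± 0.17. In that fit 0 of 10 members passed, where 692 of 18281 genes (3.79%) did, and Hsp90b1 and Dnajb9 did not overlap and were higher, 2 of 10 against 23.5%, while Creld2, Sdf2l1 and Manf did not overlap and were lower, 3 of 10 against 24.3%.

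In spleen 8 of 10 members were positive in 4F mice, with a median of 0.18. It was 0.06 to 0.09 when treated 4F replicate 1 or 2 or untreated 4F replicate 1 or 3 was left out, and 0.27 without treated 4F replicate 3. Treated replicate 1 and untreated replicate 3 are the males of the 4F arms, and without either the fit compares 4F females only. Calr held 736, 778 and 779.7 CPM in the treated 4F libraries and 658, 517 and 619.6 CPM in the untreated 4F libraries (0.35 ± 0.19, edgeR p 0.0986), and Pdia6 289.5, 312 and 295 CPM in the treated 4F libraries and 225, 223 and 276 CPM in the untreated 4F libraries (0.32 ± 0.19, p 0.127). These 2 of 10 members did not overlap and were higher in treated 4F spleens, against 3.91% of genes, with or without untreated replicate 2 (8.79% of genes without it). In B6 spleens Calr held 623 and 662 CPM in the treated B6 libraries and 657 and 758 CPM in the untreated B6 libraries, which overlapped (-0.14 ± 0.23), and 2 of 10 members, Pdia4 and Dnajb9, did not overlap and were higher, against 19.9%.

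**Figure D4:**
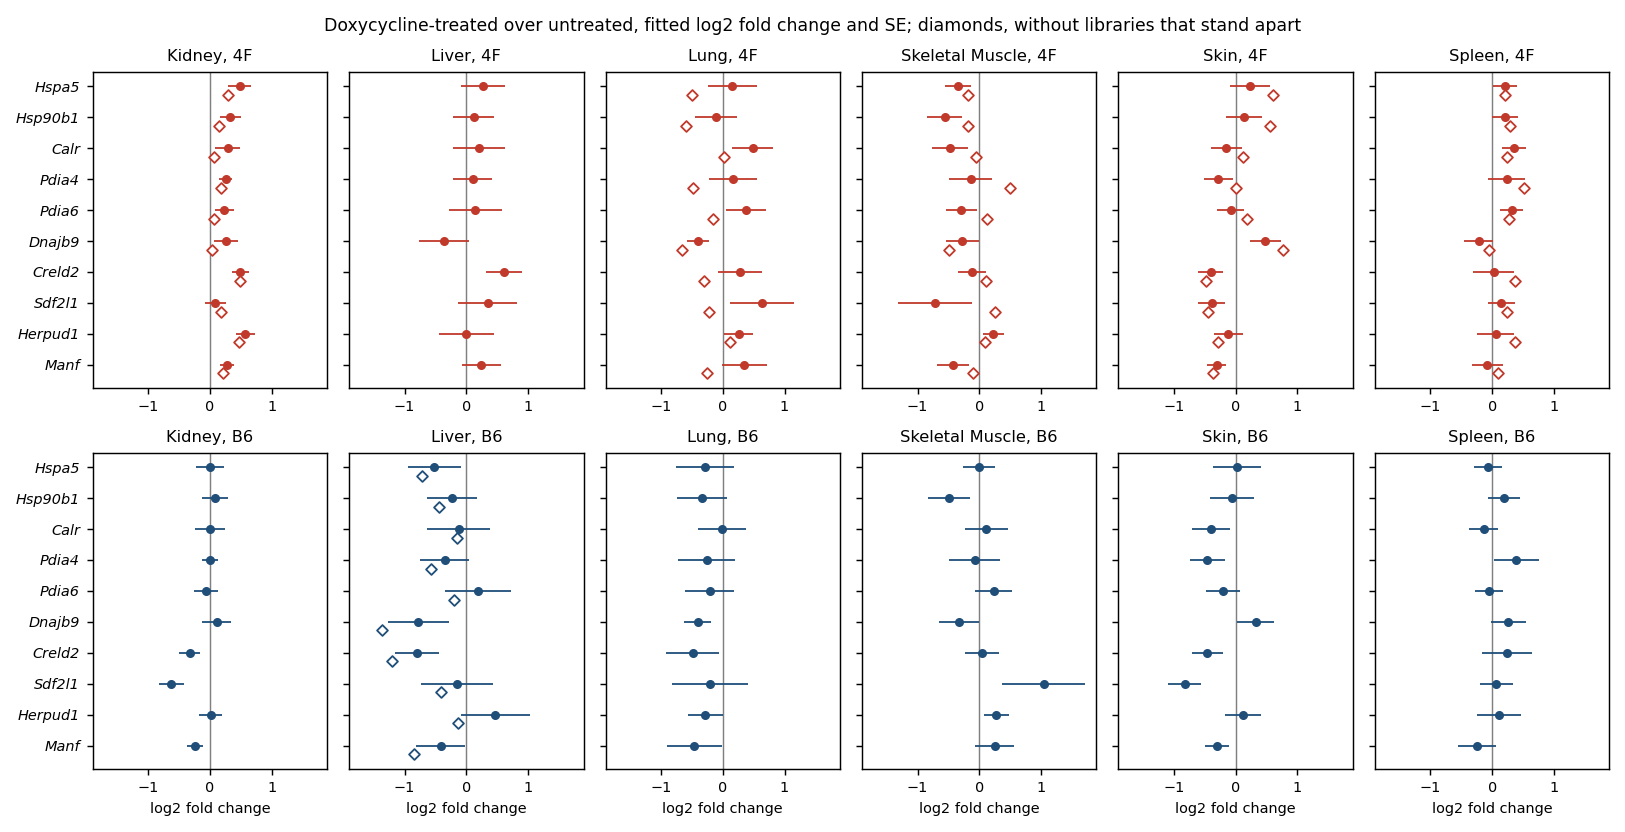
Fitted log2 fold change of each member, treated over untreated (horizontal axis), with its SE, in 6 tissues; 4F mice in the upper row (3 against 3 libraries) and B6 mice in the lower (2 against 2). Open diamonds give the fit without the libraries that stand apart, in the arms that hold one: all 10 kidney values in 4F mice stay positive, while 2 of 10 in 4F lung and 5 of 10 in 4F muscle are then positive, against 8 and 1 with all libraries.

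The effects were also compared between tissues in the fit of all 60 libraries, a comparison chosen after the data were seen. In 30 pairs of tissues, 15 for each genotype, 0 of 300 tests of a member passed with edgeR and 11 had an unadjusted p under 0.05. The smallest adjusted p was 0.217, for Sdf2l1 in 4F lung minus 4F muscle (1.98 ± 0.66 on the log2 scale), a pair in which both tissues hold a library named above and 0% of genes passed. The next was Creld2 in 4F liver minus 4F skin (1.03 ± 0.41, adjusted p 0.322), also with 0% of genes passing.

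Several members varied with plasma cell markers across the spleens, the lungs and the skins, with a positive sign, and in liver the sign was negative for all 10, a relation looked for after the data were seen. The plasma cell list of 15 genes, among them Jchain, Mzb1 and immunoglobulin constant regions, summed to 129756, 64611 and 33291 CPM in the treated 4F spleens and 48642, 151393 and 60314 CPM in the untreated 4F spleens. Pdia4 in the same libraries held 475, 333 and 186 CPM (treated 4F) and 182, 304 and 329 CPM (untreated 4F). Herpud1 held 525, 358 and 244 CPM in the treated 4F libraries and 261, 434 and 350.3 CPM in the untreated 4F libraries. The spleens with the fewest plasma cell transcripts, treated 4F replicate 3 and untreated 4F replicate 1, had the lowest Pdia4, Creld2 and Herpud1 of the 6.

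Over 10 spleens, Pearson's r between log2 levels was 0.80 for Creld2 (permutation p 0.00488), 0.78 for Herpud1 (permutation p 0.0093) and 0.74 for Pdia4 (permutation p 0.0118). Spearman's rho was 0.75, 0.79 and 0.70 for these genes (permutation p 0.0183, 0.00886 and 0.031). Without the 2 spleens farthest from the median of the list, r was 0.68, 0.68 and 0.87, and with arm means removed it was 0.80, 0.86 and 0.81. Calr and Pdia6, whose 4F arms did not overlap in spleen, had r of -0.58 and -0.30.

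In lung, Hsp90b1 had r of 0.86 and rho of 0.90 with the list (permutation p 0.00094 and 0.00092), Pdia4 had r of 0.78 and rho of 0.76 (permutation p 0.0051 and 0.0143) and Hspa5 had r of 0.75 and rho of 0.79 (permutation p 0.00434 and 0.0085). Without the 2 lungs farthest from the median these r were 0.92, 0.79 and 0.75. Over 60 relations, 10 members in 6 tissues, the lowest adjusted permutation p for r was 0.051, and for rho it was 0.0276, reached by Hsp90b1 in lung and in liver, where the sign was negative (r -0.65, rho -0.90). In skin, Calr had r of 0.84 and rho of 0.81 (permutation p 0.0036 and 0.00714) and Pdia4 had r of 0.75 and rho of 0.82 (permutation p 0.00918 and 0.00596), and without the 2 skins farthest from the median r was 0.62 and 0.58. In liver Herpud1 had the most negative r, -0.86 (permutation p 0.0559, rho -0.43), and -0.33 without the 2 livers farthest from the median. In kidney r was negative for 9 of 10 members and rested on untreated 4F replicate 2, without which the 10 values lay between -0.45 and 0.17. In bulk tissue, fewer plasma cells and less RNA of these genes per cell cannot be told apart, and the part of plasma cells in any effect of treatment was not tested.

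**Figure D5:**
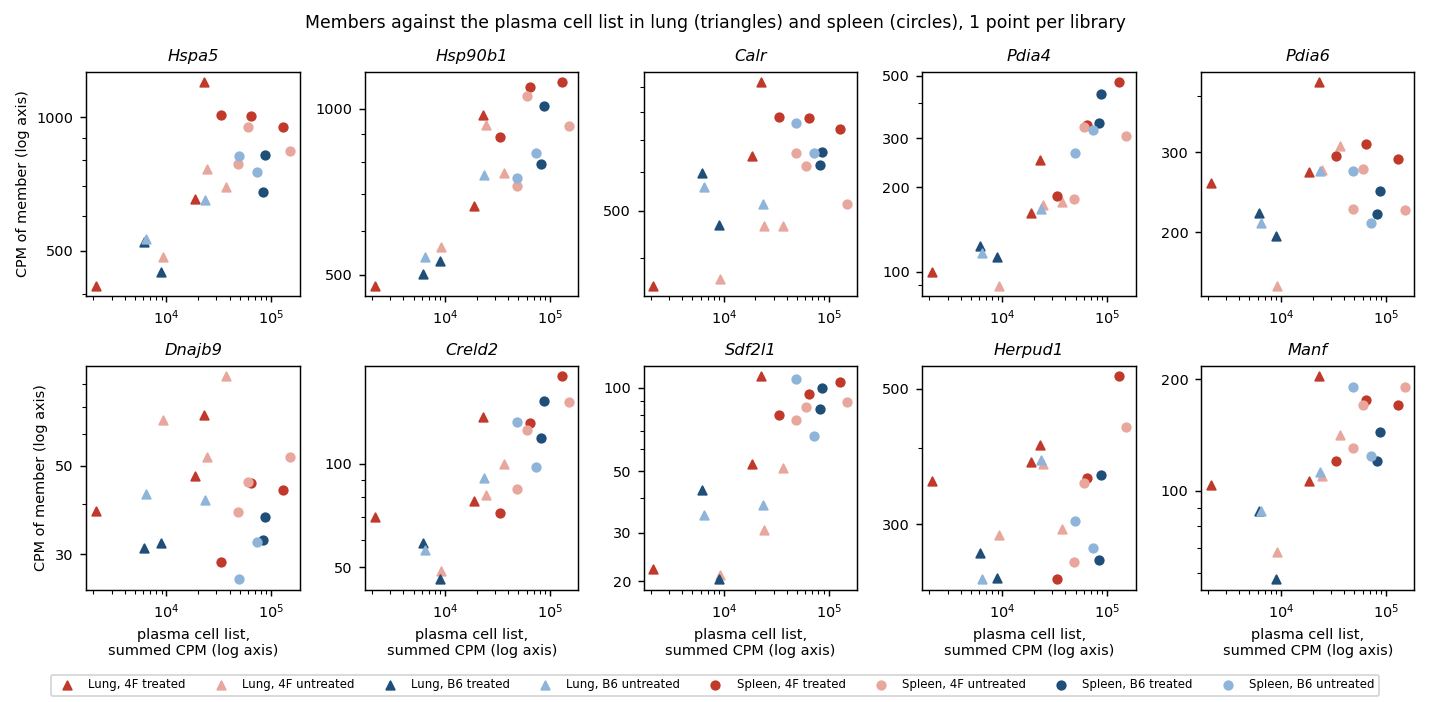
Level of each member (CPM, log axis) against the summed level of 15 plasma cell genes (CPM, log axis) in lung (triangles) and spleen (circles), 1 point per library, coloured by arm. Hsp90b1 and Pdia4 are higher where the list is higher in lung, and Pdia4, Creld2 and Herpud1 in spleen.

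After removal of each arm's mean, 8 members varied together over the 60 libraries and Herpud1 and Dnajb9 did not follow them closely. Pearson's r of a member with the mean of the other 9 was 0.82 for Hspa5 and Pdia6, 0.81 for Manf, 0.80 for Hsp90b1, 0.79 for Pdia4, 0.78 for Creld2, 0.71 for Sdf2l1 and 0.69 for Calr, but 0.37 for Dnajb9 and 0.23 for Herpud1. The closest pairs were Creld2 with Manf (0.88) and Hspa5 with Hsp90b1 (0.86). With all libraries Herpud1 was closest to Dnajb9 (0.58) and to Creld2 (0.54), and had 0.07 with Hspa5. Without the 7 libraries that stand apart (52 libraries, as the B6 untreated liver then has 1 library and gives no deviation), Herpud1 had 0.24 with the others, 0.52 with Creld2 and 0.40 with Dnajb9. These r are descriptions, since libraries share tissue and depth.

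The genes most like the mean of the members, among 12284 other protein-coding genes expressed in all tissues, were Hyou1 (r 0.79), an ER chaperone that exchanges nucleotide on Hspa5, Dnajb11 (0.76), a J-domain co-chaperone of Hspa5, Ero1lb (0.73), an oxidase of the disulfide isomerases, Stra6l (0.73), Cnpy2 (0.72), Edem2 (0.70), Ganab (0.69), Edem1 (0.69), Slc33a1 (0.69) and Ebp (0.68), where the median over all genes was 0.00. Edem1 and Edem2 act on glycans of misfolded proteins, and Ganab is the catalytic subunit of glucosidase II, Slc33a1 carries acetyl-CoA into the ER and Ebp is a sterol isomerase. Without the 7 libraries Hyou1 ranked first (0.63), Dnajb11 ranked 4 and Edem2 ranked 8. Ebp then ranked 19, Edem1 25, Cnpy2 50, Ero1lb 64, Stra6l 66, Ganab 299 and Slc33a1 353. Of 17 other ER chaperones and folding enzymes, 10 were among the 100 most alike, with a median r of 0.58. The median was 0.38 for 24 genes of ER translocation and glycosylation, 0.32 for 19 of ER-associated degradation, 0.06 for 12 sensors and factors of the unfolded protein response and 0.06 for 11 genes of the PERK and ATF4 arm.

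With all libraries, none of the other genes of these pathways passed the threshold in any tissue for doxycycline in 4F mice, with edgeR. Among all genes 0% passed in kidney, liver, lung, skin and spleen and 0.00609% in muscle, so this does not set the lists apart. In kidney, 13 of 17 other ER chaperones and folding enzymes were positive with a median log2 fold change of 0.12, and Hyou1 had 0.33 ± 0.12, the opposite sign to the isomerase Fkbp2 at -0.32 ± 0.13. ER-associated degradation had 16 of 20 positive (median 0.07), sensors and factors 10 of 12 (0.11), the PERK and ATF4 arm 8 of 11 (0.11), translocation and glycosylation 13 of 24 (0.03) and cytosolic and mitochondrial heat shock proteins 10 of 14 (0.20), where 48.1% of all genes were positive. Without untreated 4F kidney replicate 2, the counts in the same order were 8 of 17 (median -0.00), 13 of 20 (0.02), 9 of 12 (0.14), 9 of 11 (0.31), 11 of 24 (-0.00) and 10 of 14 (0.15), against 48.3% of all genes. With all libraries Eif2ak3, which encodes PERK, had 0.25 ± 0.09. Ppp1r15a, which restores translation after PERK, had 0.68 ± 0.21, and both had an edgeR adjusted p of 0.923. Xbp1 and Atf4 had 0.09 ± 0.19 and -0.04 ± 0.15 in kidney with all libraries, and Ddit3, which encodes CHOP, 0.34 ± 0.21. Without untreated 4F replicate 2, Xbp1 had 0.24 ± 0.20, Atf4 0.10 ± 0.14 and Ddit3 0.31 ± 0.25. Eif2ak3 then had 0.24 ± 0.10 and Ppp1r15a 0.70 ± 0.26. Gene counts do not separate spliced from unspliced Xbp1.

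In the other tissues the same lists varied in sign. With all libraries none of their genes passed with edgeR in 4F mice, against at most 0.00609% of all genes. In lung 11 of 11 genes of the PERK and ATF4 arm were positive in 4F mice (median 0.38), where 47.9% of all genes were, with the lowest unadjusted p for Trib3 at 0.58 ± 0.20 and Ddit3 at 0.45 ± 0.18. Without the 2 lung libraries that stand apart, 10 of 11 were positive (median 0.17) against 47.9%, Trib3 had 0.64 ± 0.29 and Ddit3 0.30 ± 0.21. Translocation genes in lung were positive for 19 of 24 with all libraries (median 0.11) and for 7 of 24 without those 2 (median -0.08). In muscle 3 of 17 other ER chaperones were positive (median -0.28), against 46.7% of all genes, and without untreated 4F replicate 3 it was 6 of 17 (median -0.11) against 49.8%. Ern1, which encodes the sensor IRE1, had -0.90 ± 0.21 in muscle (edgeR p 0.00249, adjusted p 0.54), and -0.76 ± 0.25 without that library (p 0.0181).

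In skin Sec61a1, a subunit of the translocon, had -0.74 ± 0.15, and Fkbp2 -0.75 ± 0.18, and without untreated 4F replicate 1 they had -0.74 ± 0.16 and -0.78 ± 0.18. In that skin fit 2 genes of these lists passed, chosen here after their values were seen: Erlec1, a lectin of ER-associated degradation, at 0.82 ± 0.16 (edgeR adjusted p 0.0463) and Creb3l2, a membrane-bound transcription factor of the ER, at 1.07 ± 0.20 (adjusted p 0.0457), where 3.79% of all genes passed. With all libraries neither passed. In liver Ern1 had -0.53 ± 0.21 and Atf3 1.56 ± 0.55. In spleen Hyou1 had 0.39 ± 0.20, and 0.46 ± 0.23 without untreated 4F replicate 2. Translocation genes in 4F spleens were positive for 21 of 24 (median 0.19) with all libraries, against 49.6% of all genes, and for 22 of 24 (median 0.21) without that replicate, against 49.2%. In B6 spleens 0 of 11 genes of the PERK and ATF4 arm were positive (median -1.24), against 52.4% of all genes. None passed there with edgeR, where 0% of all genes did. In fits without the libraries that stand apart, 1 of 11 were positive in B6 skin (median -0.90, against 45.2%). In B6 kidney 2 of 11 were (median -0.52, against 48.2%), in B6 muscle 4 of 11 and in B6 lung 5 of 11 (median -0.03 in each). In B6 liver, with 1 untreated library left, 4 of 11 were (median -0.17, against 51.9%).

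Sex was compared within the 4F mice, where 4 females and 2 males were sequenced per tissue. With all libraries no member passed with edgeR (0 of 60 tests, 4 with an unadjusted p under 0.05). By tissue 0.0123% to 4.21% of genes passed. With DESeq2, 2 members passed, Pdia4 and Herpud1 in muscle, where 17.4% of genes did. In muscle Pdia4 had -1.02 ± 0.36 (female minus male, edgeR adjusted p 0.127) and Herpud1 0.52 ± 0.18. The male untreated muscle was replicate 3, and without it Pdia4 had 0.02 ± 0.19 and Herpud1 0.29 ± 0.21. In lung Dnajb9 had 0.53 ± 0.19 (edgeR p 0.0231, adjusted p 0.999), and 0.50 ± 0.20 without the libraries that stand apart.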

How the data were processed

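Total RNA libraries were made with a stranded kit, per the labels' protocols, and the authors deposited raw counts per Ensembl gene on GRCm38, per the submitters' processing notes. No source used here names the aligner, the counting tool or its strand setting, so reads of overlapping genes (Manf with Rbm15b and Dcaf1, Pdia6 with Atp6v1c2, Hsp90b1 with Gm15344) may not be separable. Of 52636 genes, 147 matched no symbol in GENCODE vM21 with no more than 0.012% of the counts in any library. The 10 members, the lists and the tests were chosen with earlier results of these data known.

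In each tissue the 10 libraries were fitted with edgeR 4.0.16 (R 4.3.3, limma 3.58.1) by its quasi-likelihood test, after filterByExpr (count 10, total 15) and TMM scaling, with 4 arms and sex and 5 residual degrees of freedom. P-values were adjusted by Benjamini-Hochberg over all genes tested in the contrast, with a threshold of 0.05. Contrasts were doxycycline in 4F, in B6, their difference, and sex within 4F. Levels between tissues came from 1 fit of 60 libraries and 22646 genes (35 residual degrees of freedom). Count error covers sequencing only. The tests were run on simulated counts in which the libraries of an arm shared the same mean for each gene. That check therefore does not cover libraries that stand apart. Likeness used log2(CPM + 0.5) of named protein-coding genes, and the plasma cell relation used 100000 permutations. Motifs were searched in RefSeq promoter windows. Alternatives were DESeq2 1.42.0, its size factors in edgeR, no filter, no sex term, each genotype alone, 4F females with B6 males, each library left out and, chosen after the data were seen, leaving out the libraries whose summed markers of another cell type were over 2 times the next and at least 1000 CPM.

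All 10 members are named. From each other pathway list, genes with the 2 lowest p-values in a tissue's 4F contrast may be named, with Xbp1, Atf4, Ddit3 and Ern1, and the 10 genes most like the members.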

Additional observations from a re-analysis of the deposited data

How the results depend on the processing

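No paired analysis was possible because the arms share no replicate numbers in the labels, which do not tie libraries to mice. Members with an unadjusted p under 0.05 for doxycycline or its difference with all libraries (edgeR) kept their sign under every alternative. None of them had passed the threshold, and several medians changed sign. Members passing stayed at 0 in every tissue and doxycycline contrast under all alternatives except without B6 untreated replicate 1 in liver, where 1 passed in B6 and 1 in the difference (0 to 1 over libraries left out in turn). Leaving out each library in turn, the median log2 fold change over the members ranged from 0.18 to 0.42 for 4F kidney, -0.06 to 0.04 for B6 kidney and 0.23 to 0.51 for their difference, from -0.05 to 0.47 for 4F liver, -0.51 to 0.21 for B6 liver and 0.0056 to 0.70 for their difference, and from -0.03 to 0.58 for 4F lung, -0.46 to -0.08 for B6 lung and 0.24 to 0.92 for their difference. It ranged from -0.49 to 0.019 for 4F muscle, -0.08 to 0.25 for B6 muscle and -0.44 to -0.10 for their difference, from -0.31 to 0.061 for 4F skin, -0.33 to -0.19 for B6 skin and -0.012 to 0.42 for their difference, and from 0.06 to 0.27 for 4F spleen, -0.10 to 0.26 for B6 spleen and -0.10 to 0.24 for their difference. Without the libraries that stand apart, chosen after the data were seen, it was 0.23 for the kidney difference, -0.28 for 4F lung, 0.0019 for the lung difference, 0.019 for 4F muscle, 0.061 for 4F skin and 0.42 for the skin difference. With 4F females and B6 males it was 0.019 for 4F muscle. In each tissue, leaving out either 4F male also leaves a comparison of 4F females, since the sex term then fits the other male. With untreated libraries only, 5 members passed between kidney and muscle, against 49.96% of genes, in place of 8 against 65.3%, and 4 between lung and spleen, against 39.1%, in place of 7 against 60.6%. The cause was not tested.

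DESeq2 passed more genes for doxycycline in 4F mice: 17 in kidney, 8 in liver, 19 in lung, 86 in muscle, 606 in skin and 29 in spleen, against 1 in muscle and 0 elsewhere with edgeR. For sex in muscle, DESeq2 passed 2 members, against 17.4% of genes, and edgeR passed 0 with all libraries. Without 4F treated replicate 1, a male, several members passed with edgeR, Pdia4 and Herpud1 among them. The remaining 4F male muscle is then untreated replicate 3, which held 11857 CPM of macrophage markers. Sex and that library cannot be told apart in that fit. The arms held 3 or 2 libraries each, and the members 71 to 33339 counts in a library.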
